A study of Mus musculus with 6 samples.

Results

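A group of 46 genes of the lysosome was described in microglia of B41 HET and B41 KO mice. The genes encode 30 hydrolases or their helper proteins, 10 membrane proteins or transporters and channels, and 6 parts of the proton pump. They were picked by name, and every non-control probe whose accession maps to 1 of the symbols was read, which gave 66 probes for 46 of 46 genes among 23462 named genes on the array. Of the 46 genes, 28 had 1 probe, 16 had 2 and 2 had 3 (Grn and Ppt1).

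Lysosomes are acidic compartments in which hydrolases break down proteins, glycosaminoglycans, sphingolipids, glycogen and other cargo, and microglia rely on them to digest what they engulf. A proton pump, the V-ATPase, keeps the lumen acidic, and the products leave through transporters and channels in a membrane lined with glycoproteins such as LAMP1. Many lysosomal genes carry E-boxes in their promoters that are bound by TFEB and TFE3, and the transcriptional repressors BHLHE40 and BHLHE41 bind the same core letters.

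Gene expression was measured with 6 single-colour arrays (Cy3), 3 from B41 HET mice, genotype Bhlhe41 dTomato-Cre/+, and 3 from B41 KO mice, genotype Bhlhe41 dTomato-Cre/dTomato-Cre, all young. The inserted cassette encodes dTomato and Cre, lies upstream of the start codon and is driven by the Bhlhe41 promoter. The controls thus also carried 1 targeted allele, and no wild-type mice were among these arrays. The cells were enriched from brain on a Percoll gradient and sorted as live CD45low CD11b+ Cx3cr1+ cells. Each sample was pooled from several mice, as the methods describe. The labels count 3 mice for each genotype. The p-values here measure only the spread between these samples.

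Between 70.1% and 75.5% of the probes were well above background on each array, and no spot was saturated. Arrays correlated at 0.989 to 0.993 within a genotype and at 0.985 to 0.989 between genotypes. The summed intensity of 12 microglia markers was 176763 to 192447 in B41 HET and 172393 to 182078 in B41 KO samples, and 1 of the 12 (Fcrls) was called, as lower. Of 13 neutrophil markers, 10 were lower in B41 KO samples, with summed intensities of 32175 to 36129 against 6436 to 6832. Of 5 monocyte markers 3 were lower (1335 to 1427 against 342 to 369), of 10 border macrophage markers 6 were lower (2587 to 2784 against 1738 to 1910), and of 5 endothelial markers 2 were lower (summed intensity of all 5, 1146 to 1257 against 402 to 453). These were Pecam1 (log2 fold change -1.68) and Ly6c1 (-1.79), whereas Cldn5 was at -0.13, Kdr at -0.0093 and no array had Cdh5 well above background. On the B41 KO arrays the border macrophage markers Lyve1 and Mrc1 did not stand well above background. The part of these cells in the results below was not tested, and in bulk samples fewer cells of a type and less RNA per cell cannot be told apart. Both probes of Bhlhe41 had values that were not lower in B41 KO samples (log2 difference of 0.38, adjusted p = 0.330, and 0.33, adjusted p = 0.203), so its signal is no check of the genotype labels.

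The promoters were read first, because the E-box is the sequence that the TFEB family and BHLHE41 share. RefSeq windows of 250 bases before and 50 bases after a start listed for the gene (build GRCm38.p6) were held for 41 of the 46 genes, 48 windows in all, and Asah1, Atp6v0d2, Atp6v1h, Galns and Npc1 had no window here. For 34 genes the nearest window began within 100 bases of the annotated gene start. For Ppt1, Laptm5, Atp6v1a, Man2b1, Atp6v0a1, Arsg and Ids it lay 150 to 20749 bases from it, so the windows of these 7 are not centred on the annotated starts. The stretches below show 3 promoters with several copies of CACGTG, those of Lamp1, Mcoln1 and Gla, then Glb1 with 1 copy and Arsb, the gene with the largest decrease, with none in its window. Capitals mark CACGTG, and each stretch lies before the annotated gene start and is written along the gene's strand.
Lamp1 (chr8:13159061-13159160, plus strand): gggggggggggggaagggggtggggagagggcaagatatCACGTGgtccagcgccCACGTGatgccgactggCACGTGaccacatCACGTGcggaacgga
Mcoln1 (chr8:3500419-3500518, plus strand): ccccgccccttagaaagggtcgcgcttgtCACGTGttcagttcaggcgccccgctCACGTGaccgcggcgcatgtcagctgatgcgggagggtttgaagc
Gla (chrX:134601186-134601245, minus strand): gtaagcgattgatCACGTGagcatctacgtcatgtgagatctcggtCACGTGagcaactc
Glb1 (chr9:114400978-114401037, plus strand): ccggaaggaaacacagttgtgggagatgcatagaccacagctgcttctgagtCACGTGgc
Arsb (chr13:93771579-93771678, plus strand): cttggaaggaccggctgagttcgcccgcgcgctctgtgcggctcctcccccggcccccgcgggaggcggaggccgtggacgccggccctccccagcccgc

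CACGTG, which reads the same on both strands, was present in the windows of 12 of 41 members (29.3%), against 9.19% of 18490 measured genes that had a window. The 12 were Arsa, Atp6v0d1, Atp6v1a, Cln3, Gaa, Gla, Glb1, Lamp1, Lgmn, Mcoln1, Naglu and Sgsh, with 18 copies in all. Lamp1 had 4 copies, whose first bases lay at -61, -45, -28 and -15 from the listed start, and Mcoln1 had 2, at -71 and -45. Cln3 and Gla also had 2 copies each. Of the 18 copies, 12 began within 100 bases before the start. The longer palindrome TCACGTGA, which contains CACGTG, was in 5 of 41 members (12.2%) and 1.41% of measured genes. CATGTG, searched on both strands, was in 9 of 41 members (22.0%) and 13.5% of measured genes. When only the bases before the start were searched, CACGTG was in 11 of 41 (26.8%) against 7.84%. A match describes the letters of a window and was not taken as a binding site.

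To find whether these genes differed between the genotypes, each was represented by its brightest probe. A gene was called when its adjusted p did not exceed 0.05 and its log2 fold change was at least 0.5 in either direction. On every array the brightest probes of all 46 genes were well above background, compared with 73.4% of all genes. In B41 KO samples 2 of the 46 genes (4.35%) were called, and both, Arsb and Acp2, were lower. Over all 23462 genes 5.45% were called, 1.44% as higher and 4.01% as lower, so the share among the lysosomal genes was close to that background. The median log2 fold change was 0.019 over the 46 genes and 0.0067 over all genes, and the median absolute value was 0.15 against 0.19. Values were above 0 for 24 genes and below 0 for 22. For 28 genes the absolute log2 fold change was under 0.2, and for 35 it was under 0.3.

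Standard errors of the log2 fold change ran from 0.06 to 0.23, with a median of 0.09 against 0.12 over all genes. Unlike the 46, all genes here include those not well above background on every array. The 95% confidence interval of the log2 fold change lay within 0.5 of 0 for 29 of the 46 genes (63.0%), against 46.1% of all genes. For the other 17 genes, Arsb and Acp2 included, it reached past 0.5 in absolute size, and for 15 of these no call was made. The 3 B41 KO values lay wholly above the 3 B41 HET values for 11 genes and wholly below for 10, or 45.7% together. The share was 32.2% over all genes (14.2% above and 18.0% below) and 39.0% over the 17222 genes well above background on all 6 arrays. An exact permutation test of 3 against 3 samples cannot give a two-sided p under 0.1, so single genes were judged by the limma fit over all probes.

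**Figure D1:**
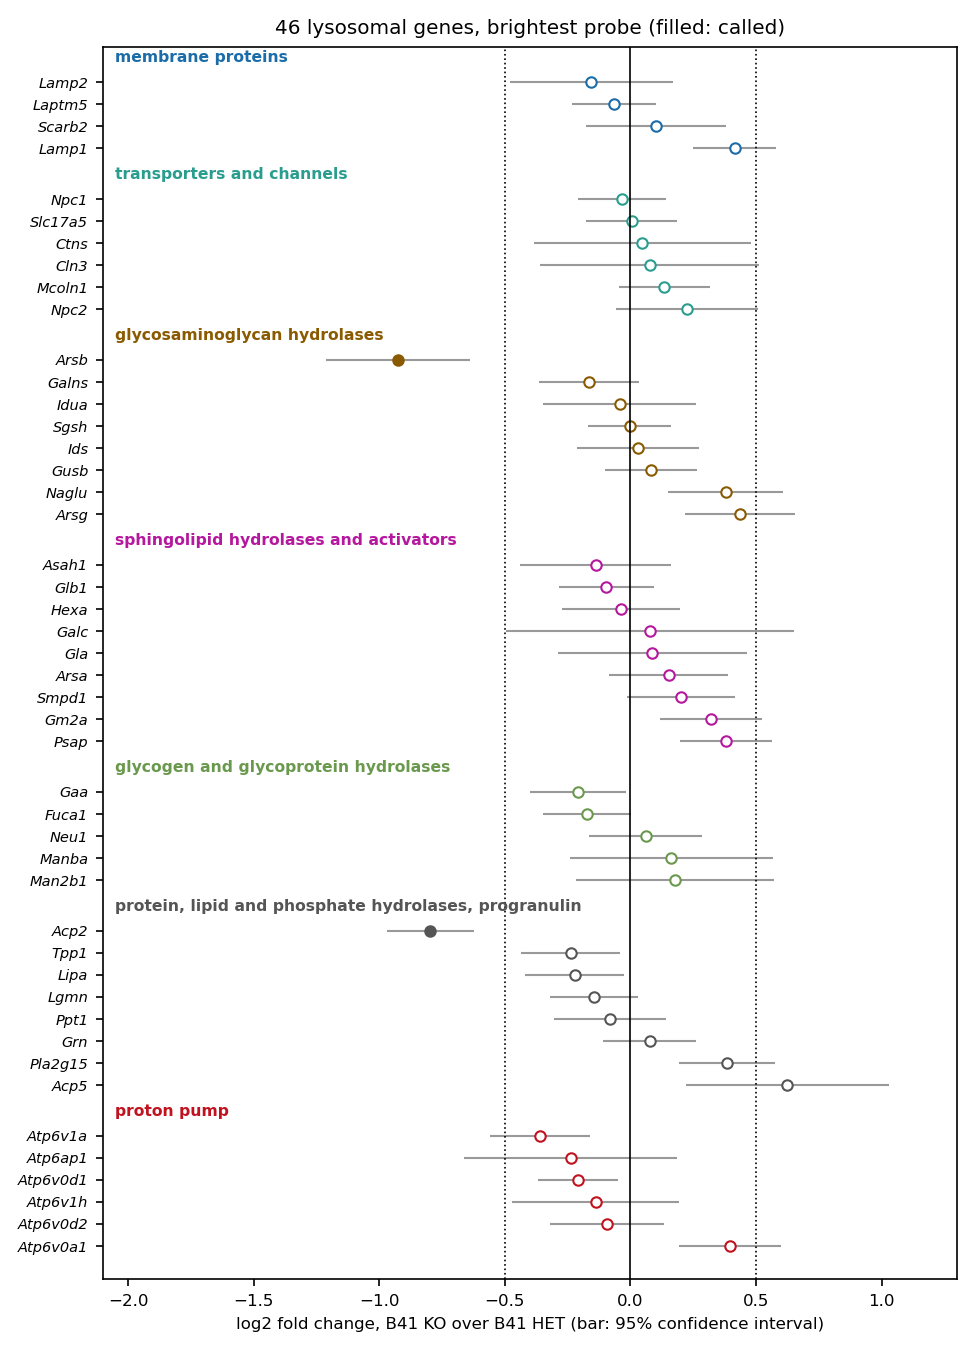
Log2 fold change of B41 KO over B41 HET for the brightest probe of each of the 46 lysosomal genes, grouped by role, with 95% confidence intervals as bars, dotted lines at the fold threshold of 0.5 and filled points for called genes. Arsb and Acp2 are the only filled points, both on the left, and 29 intervals lie between the dotted lines.

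Arsb and Acp2, hydrolases of different substrates, had the lowest values of the group. Arsb encodes arylsulfatase B, which removes sulfate from dermatan and chondroitin sulfate, and Acp2 encodes a lysosomal acid phosphatase. The log2 signal of the brighter Arsb probe was 11.90, 11.66 and 11.51 in the B41 HET samples and 10.72, 10.84 and 10.74 in the B41 KO samples. The highest B41 KO value was thus well below the lowest B41 HET value. The log2 fold change was -0.93 (SE 0.12, n = 3 per genotype, limma with Benjamini-Hochberg adjusted p = 0.0142), a signal 47.4% lower. The other Arsb probe read 11.38, 11.32 and 11.35 in B41 HET and 10.57, 10.40 and 10.46 in B41 KO samples. Its log2 fold change was -0.87 (SE 0.07, limma adjusted p = 0.00581), so both probes of this gene were called in the same direction. Acp2 read 12.40, 12.28 and 12.30 in B41 HET and 11.54, 11.55 and 11.49 in B41 KO samples, again without overlap. Its log2 fold change was -0.80 (SE 0.07, limma adjusted p = 0.00620), a signal 42.5% lower.

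Acp2 and the dimmer Arsb probe stayed called when each array in turn was left out (adjusted p of 0.0274 to 0.0374 and 0.0216 to 0.0378). The brighter Arsb probe was no longer called without B41 HET replicate 2 (adjusted p = 0.0659), B41 KO replicate 1 (0.0552), replicate 2 (0.0530) or replicate 3 (0.0541), with log2 fold changes between -1.02 and -0.82 over the 6 fits. The arrays lay in 2 rows of a slide, with all B41 HET samples and B41 KO replicate 1 in row 1 and B41 KO replicates 2 and 3 in row 2. Within row 1, B41 KO replicate 1 differed from the B41 HET mean by -0.97 and -0.78 for the brighter and the other Arsb probe and by -0.78 for Acp2. A fit that blocked on the slide row rests on the same contrast, since row 2 holds B41 KO arrays alone, and gave the same differences from 1 B41 KO sample. Its limma adjusted p was 0.108 and 0.0616 for the Arsb probes and 0.0680 for Acp2, and none was called.

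Arsg was the 1 gene called through a probe other than its brightest. It encodes arylsulfatase G, a sulfatase of heparan sulfate. Its dimmer probe read 6.82, 6.65 and 6.82 in B41 HET and 7.73, 7.85 and 7.75 in B41 KO samples, a gap wider than the spread of either genotype. The log2 fold change was 1.01 (SE 0.08, limma adjusted p = 0.00506). Its brightest probe read 9.35, 9.40 and 9.29 in B41 HET and 9.79, 9.90 and 9.66 in B41 KO samples, also without overlap. There the log2 fold change was 0.44 (SE 0.09, limma adjusted p = 0.0473), which lies just outside the fold threshold, and the adjusted p was 0.0625 to 0.132 when an array was left out. The dimmer probe remained called in all 6 such fits, and within slide row 1 it differed by 0.97. Blocking on the slide row ended the call (adjusted p = 0.0616). Under normexp background correction the log2 fold change was smaller, at 0.66 (adjusted p = 0.000741). Over all member probes, 4 of 66 (6.06%) were called, 1 higher and 3 lower, against 5.07% of all 56601 probes (1.72% higher and 3.34% lower).

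**Figure D2:**
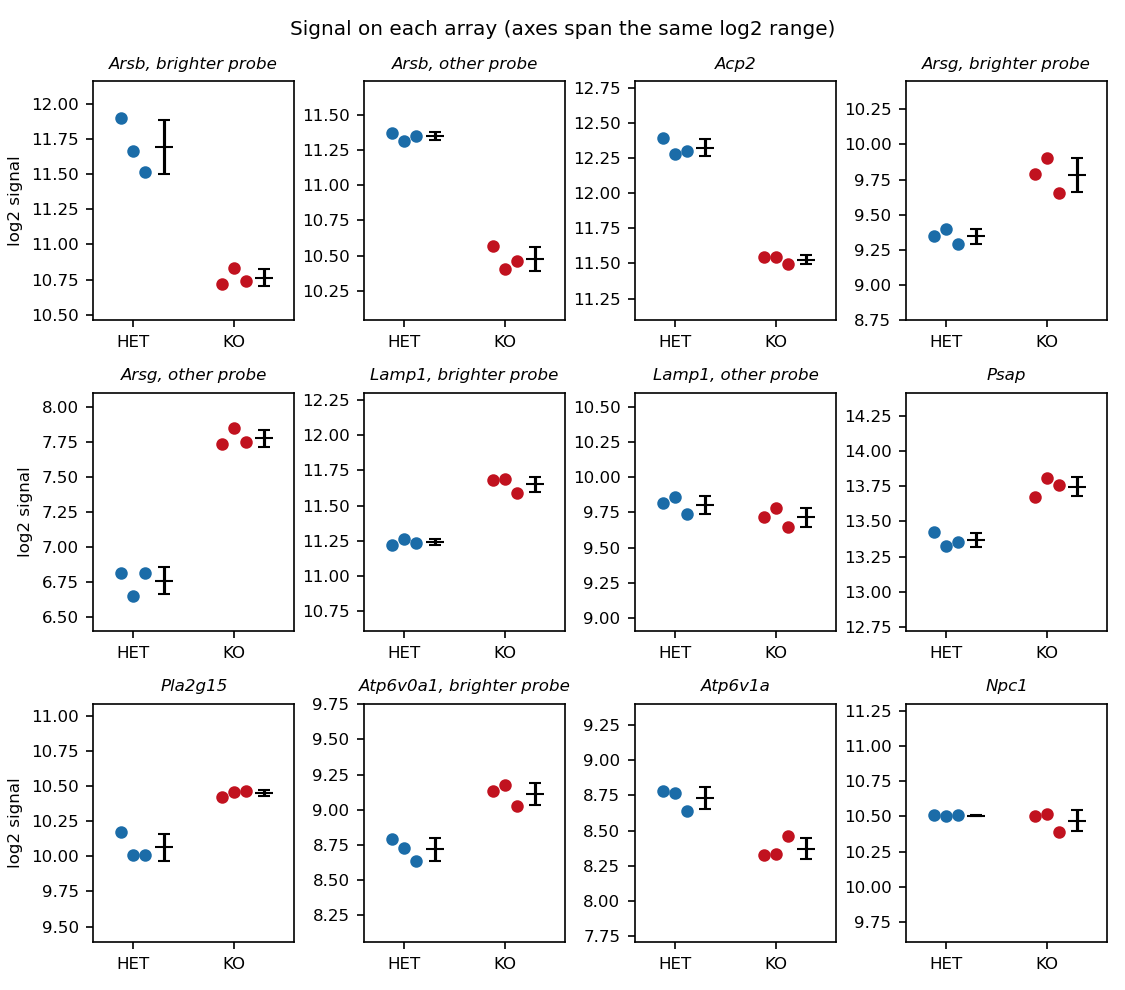
Log2 signal on each array for 12 probes of lysosomal genes, with B41 HET samples in blue, B41 KO samples in red, and the mean with its SD (n = 3) in black beside them. The genotypes are apart for Arsb, Acp2 and both Arsg probes, whereas for the other Lamp1 probe and for Npc1 the points of the genotypes overlap.

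With the adjusted p alone and no fold threshold, 7 of the 46 genes (15.2%) passed, against 7.56% of all genes. The sets are unlike, since only 73.4% of all genes were well above background on every array, as all 46 were. Of the 7, 5 were higher in B41 KO samples and 2 were lower, where the shares over all genes were 2.13% and 5.43%. The 5 were Lamp1 and Arsg, both just outside the fold threshold, Psap and Pla2g15, which were picked out after their values were seen, and the proton pump gene Atp6v0a1. Psap encodes the precursor of the saposins that help sphingolipid hydrolases, and its log2 signal was 13.43, 13.33 and 13.35 in B41 HET and 13.68, 13.81 and 13.76 in B41 KO samples. Its log2 fold change was 0.38 (SE 0.07, limma adjusted p = 0.0421). Pla2g15, a lysosomal phospholipase, read 10.17, 10.01 and 10.01 in B41 HET and 10.42, 10.46 and 10.47 in B41 KO samples. The log2 fold change of Pla2g15 was 0.39 (SE 0.08, limma adjusted p = 0.0455). In none of the 4 genes Arsg, Psap, Pla2g15 and Atp6v0a1 did the adjusted p of the brightest probe stay at 0.05 or less in a fit without an array, and for Lamp1 it was 0.0560 to 0.0994. The brightest probes of these 5 genes had log2 fold changes of at most 0.44 and were not called.

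Among the 4 membrane glycoproteins and related membrane proteins, none was called. Lamp1, the most widely used lysosomal marker, read 11.22, 11.26 and 11.23 with its brighter probe in B41 HET samples and 11.68, 11.69 and 11.59 in B41 KO samples, without overlap. The log2 fold change was 0.41 (SE 0.07, limma adjusted p = 0.0278), and it was 0.52 (adjusted p = 0.0184), past the fold threshold, when the authors' own processed values were fitted. Its other probe read 9.82, 9.86 and 9.74 against 9.72, 9.78 and 9.64, with overlapping genotypes and a log2 fold change of -0.09 (adjusted p = 0.555). Lamp1 therefore had probes of opposite sign. Lamp2, its close relative, read 10.53, 10.42 and 10.48 in B41 HET and 10.54, 10.07 and 10.35 in B41 KO samples (log2 fold change -0.16, adjusted p = 0.559), and its other probe had 0.15 (adjusted p = 0.388). Laptm5, a lysosomal membrane protein of blood cells, and Scarb2, the receptor that carries glucocerebrosidase to lysosomes, had log2 fold changes of -0.06 and 0.10.

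None of the 6 transporters and channels was called, and their log2 fold changes ran from -0.03 to 0.23. Npc1, which exports cholesterol, read 10.51, 10.50 and 10.51 in B41 HET and 10.51, 10.52 and 10.39 in B41 KO samples. The log2 fold change of Npc1 was -0.03, with a 95% confidence interval of -0.21 to 0.14. Mcoln1, the cation channel TRPML1, read 8.89, 8.95 and 8.79 in B41 HET and 9.01, 9.004 and 9.03 in B41 KO samples. All B41 KO values were above all B41 HET values, by a small margin, and the log2 fold change was 0.13 (95% confidence interval -0.05 to 0.31, adjusted p = 0.346). Npc2, the luminal partner of Npc1, had 0.23, the cystine exporter Ctns 0.05, the sialic acid exporter Slc17a5 0.005 and Cln3 0.08. The other Cln3 probe was at -0.06 and the other Slc17a5 probe at 0.04. The 2 Slc17a5 probes were far apart in level, with mean log2 signals of 14.6 and 6.2 in B41 HET samples.

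The 8 glycosaminoglycan hydrolases ran from -0.93 for Arsb to 0.44 for Arsg. Between these lay Naglu at 0.38 (adjusted p = 0.0735) and Galns at -0.16, both with genotypes that did not overlap. Gusb, Ids, Idua and Sgsh had log2 fold changes between -0.04 and 0.08. The brightest Sgsh probe read 16.83 to 16.91 over all arrays, and 16.857 and 16.913 each occurred in both genotypes. Its log2 fold change was -0.003, against 0.18 (limma adjusted p = 0.336) with a shift of each array in place of quantile normalization. The other Sgsh probe was at -0.04, with a mean log2 signal of 9.37 in B41 HET samples. How far quantile normalization set the value of so bright a probe was not tested. Of the 9 sphingolipid hydrolases and activators none was called, and the log2 fold changes ran from -0.14 for the ceramidase Asah1 to 0.38 for Psap. The B41 KO values of Psap, the activator Gm2a (0.32, adjusted p = 0.0829) and the sphingomyelinase Smpd1 (0.20, adjusted p = 0.247) were wholly above those of B41 HET. Arsa, Galc, Gla, Glb1 and Hexa, among them enzymes deficient in human leukodystrophies and gangliosidoses, had values between -0.10 and 0.15 with overlapping genotypes.

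In the glycogen and glycoprotein group 0 of 5 genes were called. Gaa, the acid glucosidase that degrades glycogen, read 10.82, 10.69 and 10.67 in B41 HET and 10.47, 10.58 and 10.52 in B41 KO samples, a log2 fold change of -0.21 (adjusted p = 0.185). Its dimmer probe read 7.78, 7.25 and 7.51 against 8.14, 8.06 and 8.09, a log2 fold change of 0.58 (adjusted p = 0.0755), so the 2 probes were apart in opposite directions. The dimmer probe passed both thresholds with dim probes removed before the fit (adjusted p = 0.0382) and with a trended, robust variance (adjusted p = 0.0413). Fuca1, a fucosidase, was at -0.17, with its genotypes apart, and Man2b1, Manba and Neu1 were between 0.06 and 0.18 with overlap.

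The 8 hydrolases of proteins, lipids and phosphate esters with progranulin included Acp2 and had a median log2 fold change of -0.11. The protease Tpp1 (-0.24), the lipase Lipa (-0.22) and the protease Lgmn (-0.15) had B41 KO values wholly below B41 HET, with adjusted p of 0.151, 0.171 and 0.292. Acp5, the tartrate-resistant acid phosphatase, had the largest positive value of the 46 in this fit, with 6.12, 5.71 and 5.92 in B41 HET and 6.39, 6.42 and 6.81 in B41 KO samples. Its log2 fold change of 0.63 (SE 0.16, 95% confidence interval 0.22 to 1.03) had a limma adjusted p of 0.0859 and was not called, and when dim probes were removed before the fit the adjusted p was 0.0430. With normexp background correction its log2 fold change was 0.35 (adjusted p = 0.0136), and the brightest probes of 5 other members had larger values. Grn, the gene of progranulin, read 15.59, 15.47 and 15.47 in B41 HET and 15.53, 15.59 and 15.64 in B41 KO samples, with overlap (0.08, adjusted p = 0.611), and its other probes were at -0.10 and -0.13. Ppt1, the palmitoyl thioesterase, was at -0.08.

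None of the 6 proton pump genes was called, and 5 of the 6 had values below 0, of which Atp6v0d2 was at 0.059 when each array was shifted to its 75th percentile. Atp6v1a, the catalytic subunit of the cytosolic sector, read 8.78, 8.77 and 8.64 in B41 HET and 8.33, 8.33 and 8.46 in B41 KO samples. The genotypes were apart, and the log2 fold change was -0.36 (SE 0.08, limma adjusted p = 0.0602). Atp6v0d1, a subunit of the membrane sector, read 11.32, 11.30 and 11.25 in B41 HET and 11.10, 11.07 and 11.06 in B41 KO samples, also apart, at -0.21 (adjusted p = 0.127). Atp6v0a1, another membrane subunit, went the other way, with 8.79, 8.73 and 8.63 in B41 HET and 9.13, 9.18 and 9.02 in B41 KO samples. This gave a log2 fold change of 0.40 (SE 0.08, limma adjusted p = 0.0495), and its dimmer probe was at 0.08 (adjusted p = 0.733). The accessory subunit Atp6ap1 read 11.43, 11.46 and 11.30 in B41 HET and 11.35, 11.34 and 10.79 in B41 KO samples. Only B41 KO replicate 3 stood below the rest, and the log2 fold change was -0.24 (SE 0.17, adjusted p = 0.484). Atp6v1h read 5.21, 5.42 and 5.54 against 5.15, 5.46 and 5.15 (-0.14, adjusted p = 0.607). Atp6v0d2, with a dim brightest probe, read 3.24, 3.39 and 3.43 against 3.16, 3.36 and 3.25 (-0.09, adjusted p = 0.609), and its other probe was well above background on B41 KO replicate 3 alone.

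**Figure D3:**
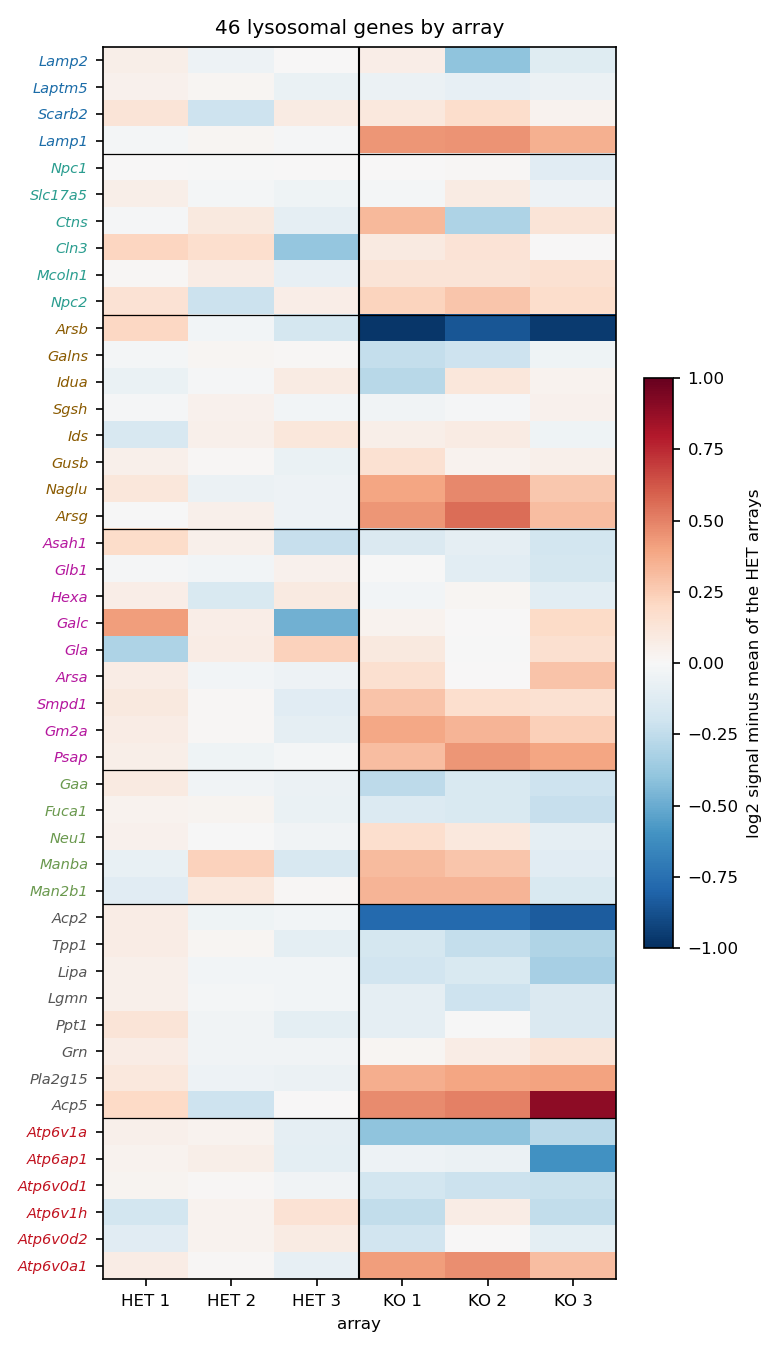
Log2 signal of the brightest probe of each of the 46 lysosomal genes on each array, minus the mean of the 3 B41 HET arrays, with gene names coloured and divided by role as in the plot of fold changes. Arsb and Acp2 are dark blue on all 3 B41 KO arrays, and most other rows stay pale on all 6.

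Of the 18 genes with more than 1 probe, 8 had probes whose log2 fold changes differed in sign. Beside Lamp1, Lamp2, Gaa and Grn, these included Glb1, with -0.10 for its brightest probe and 0.35 (adjusted p = 0.0395) for the other, and Ppt1, with -0.08, 0.32 and -0.06. Glb1 and Ppt1 were picked out after their values were seen. When the probes of a gene were averaged instead, 3 genes were called, the third being Arsg at 0.72.

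**Figure D4:**
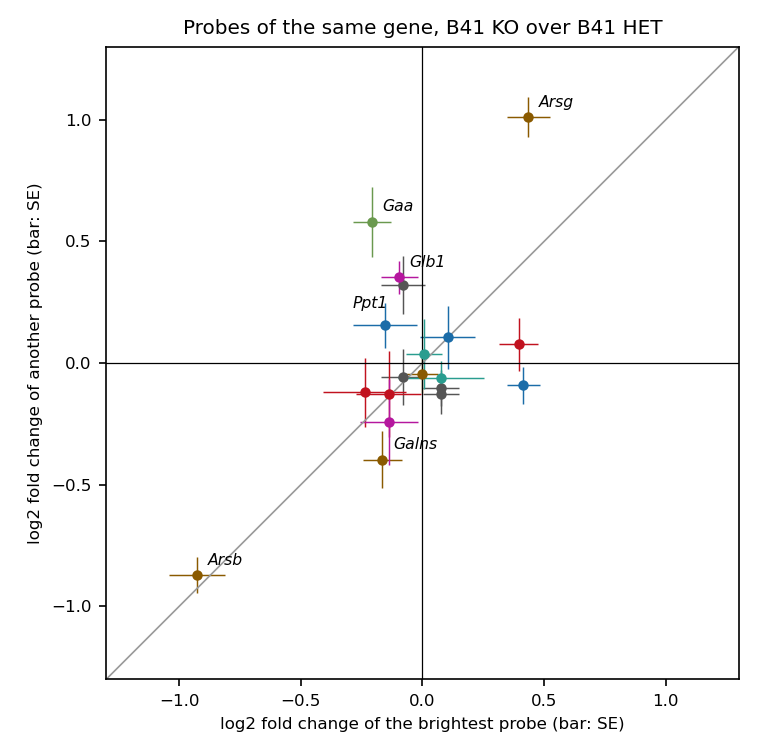
Log2 fold change of each further probe against that of the brightest probe of the same gene, B41 KO over B41 HET, with SE bars, a grey line of equality and colours by role for 19 probe pairs (the dim Atp6v0d2 probe is left out). Arsb lies on the line, Arsg lies above it, and Gaa, Glb1, Lamp2 and 1 pair of Ppt1 lie in the upper left, where the signs differ. Lamp1, Cln3 and the Grn pairs lie in the lower right, where the signs differ as well.

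The promoter E-box was then set beside the expression values. Among the 12 genes with CACGTG in the window, none was called and the median log2 fold change was 0.037. Among the 29 without it, 2 were called and the median was 0.060. Neither Arsb nor Acp2 had CACGTG in its window. Over all measured genes, 5.88% of 1700 with CACGTG and 5.41% of 16790 without it were called. Of the 12, the B41 KO values were wholly above B41 HET for 3 genes, Lamp1, Mcoln1 and Naglu, and wholly below for 4, Atp6v0d1, Atp6v1a, Gaa and Lgmn. These shares were 25.0% and 33.3%, against 15.8% and 21.6% of the 1700 measured genes with CACGTG, and 27.6% and 17.2% of the 29 lysosomal genes without it.

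**Figure D5:**
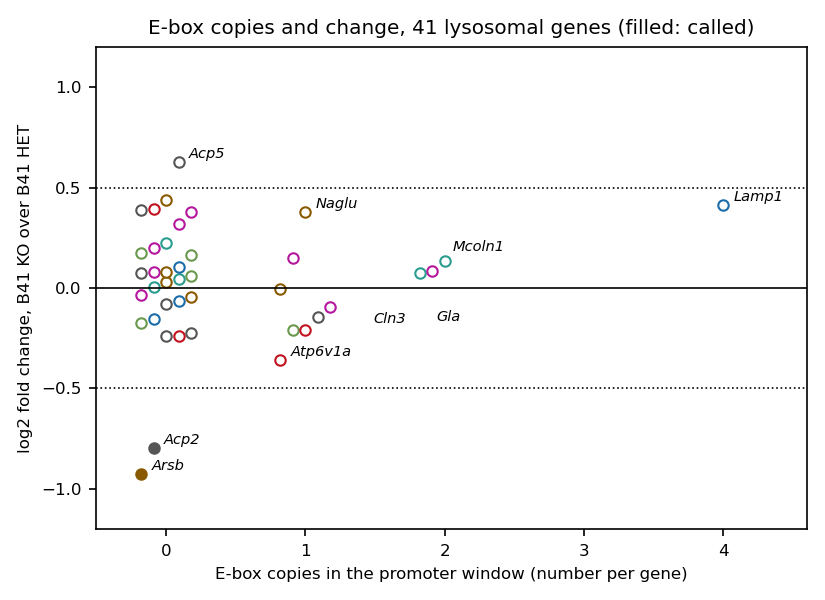
Log2 fold change of B41 KO over B41 HET for the 41 lysosomal genes with a promoter window, by the number of CACGTG copies in the window, with dotted lines at the fold threshold of 0.5, filled points for called genes and colours by role. Both filled points are at 0 copies, and Lamp1 stands alone at 4 copies with 0.41.

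The rest of the pathway was read from lists of 97 further genes, of which 96 had a probe. They hold lysosomal genes, genes of mannose 6-phosphate sorting, and 11 genes of the TFEB family and its regulators, Bhlhe40 and Bhlhe41 among them. Of these, 9 (9.38%) were called, 3 higher and 6 lower, against 5.45% of all genes. The 3 higher genes were Man2b2 (0.88), an alpha-mannosidase, Cd63 (0.72), a tetraspanin of late endosomes, and Atp6v1b1 (0.94), a subunit of the proton pump. Of the other 16 proton pump subunits, Atp6v0c, which forms the membrane ring of the pump, was called as lower. Its signals were 12.80, 13.09 and 12.86 in B41 HET and 11.91, 11.79 and 11.74 in B41 KO samples, a log2 fold change of -1.10 (SE 0.10, limma adjusted p = 0.00744), and its other probe was at -0.39 (adjusted p = 0.0603). The remaining lower genes were the nucleoside transporter Slc29a3 (-0.91), the membrane protein Mfsd8 (-0.69, other probe -0.13), the chitobiase Ctbs (-0.62, other probe 0.04), Nagpa (-0.60), which uncovers the mannose 6-phosphate signal, and Tfe3. None of 13 cathepsins was called. When each array in turn was left out, 5 to 7 of the further genes were called, while the share over all genes fell from 5.45% to between 1.56% and 2.99%. In all 6 fits Man2b2, Cd63, Atp6v0c, Slc29a3 and Mfsd8 remained called. With normexp background correction Mfsd8 was at -0.28 and Ctbs at -0.42, both short of the fold threshold. Ctbs was called in 0 of the 6 (log2 fold changes of -0.72 to -0.53), Atp6v1b1 in 1 (0.82 to 1.06), Nagpa in 2 (-0.64 to -0.57) and Tfe3 in 2 (-0.76 to -0.62). Within slide row 1, B41 KO replicate 1 differed from the B41 HET mean by 0.97 for Man2b2 and 0.77 for Cd63. For Atp6v0c, Slc29a3 and Mfsd8 it differed by -1.01, -0.94 and -0.69. These differences rest on 1 B41 KO sample.

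Tfe3 and Tfeb encode the factors that drive lysosomal genes. Tfe3 read 9.98, 10.05 and 10.10 in B41 HET and 9.37, 9.48 and 9.19 in B41 KO samples, without overlap. For Tfe3 the log2 fold change was -0.70 (SE 0.10, limma adjusted p = 0.0197), and the other probe was at -0.30 (adjusted p = 0.284). The brightest Tfeb probe read 10.88, 11.00 and 10.78 against 10.69, 10.55 and 10.38, a log2 fold change of -0.35 (adjusted p = 0.138). The other Tfeb probes were at -0.33 (adjusted p = 0.160) and -0.56 (adjusted p = 0.0174), the latter called, though only in 1 of the 6 fits without an array and not with normexp (-0.47). Mitf was at -0.09, and no array had Tfec well above background. Bhlhe40, the close relative of Bhlhe41, was at 0.09 (adjusted p = 0.705).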

How the data were processed

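The scanner files hold Agilent Feature Extraction 11.5.1.1 output for 1-colour (Cy3) arrays, and the processed intensity deposited by the authors is background-subtracted by that software. The authors' series table holds their processed log2 values, which had the same distribution in each sample (sorted values differed by at most 0.00085), and was fitted as an alternative. Spots flagged as outliers (95 to 136 on an array) and control spots did not enter, spots of a probe were averaged, and log2 processed intensities were quantile normalized over the 6 arrays, with the number of arrays limiting the precision. The 56601 probes were fitted with limma 3.58.1 in R 4.3.3 (genotype as the only term, eBayes, Benjamini-Hochberg adjustment over all probes), and the script was tested on simulated data. Figures and promoter searches used Python 3.11.15 with pandas 2.3.3 and matplotlib 3.10.9. Symbols came from RefSeq by accession for 33767 of 56605 probes (59.7%), since the array design can hold old names. Probes of a gene read different parts of it, so their levels were not compared. The members, gene lists, markers and tests were chosen with earlier results of these data known. Values in every sample are given for members with a called probe, for Lamp1, Lamp2, Npc1, Gaa, Grn, Mcoln1 and the proton pump genes. Members near the fold threshold (log2 fold change of 0.4 to 0.6 in absolute size, adjusted p up to 0.05) were named, and genes outside the 46 where called or where they encode Bhlhe or TFEB family factors. The markers Lyve1, Mrc1, Cldn5, Kdr and Cdh5 were named after their values were seen. Alternatives were another normalization, background correction, variance model, filter, probe choice, threshold, blocks by replicate number or slide row, and leaving out each array.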

Additional observations from a re-analysis of the deposited data

How the results depend on the processing

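The count of 2 called member genes was 2 or 3 (4 to 6 probes) under another normalization, background correction, variance model, filter or probe choice, the third gene being Lamp1 (0.52) in the authors' values, Acp5 with dim probes removed, or Arsg with the mean over probes or the probe with the lowest p. It was 7 with no fold threshold (10 probes in place of 4), and 1 to 2 genes and 3 to 4 probes when an array was left out, where 367 to 701 genes were called on the whole array in place of 1279. With the replicate number as a block it was 0 genes, 0 probes and 0 of the further pathway genes, with an adjusted p of 0.0844 for Arsb and 0.0715 for Acp2, and 21 genes were called on the whole array. Deviations of same-numbered samples correlated at 0.0276, 0.0136 and 0.0478, and those of the other pairs at -0.0506 to 0.0281. Not every sample correlated best with its own number. With 3 samples per genotype these values cannot tell whether the numbers pair the samples. With the slide row as a block it was 0 genes, 0 probes and 1 further pathway gene, and 200 genes on the whole array. The 9 further pathway genes called became 14 with the probe of lowest p and 5 to 7 when an array was left out. The members' median log2 fold change was 0.046 with a shift to the 75th percentile (0.049 below that of all genes, in place of 0.012 above it), 0.054 with the mean over probes or the lowest p, and -0.0095 to 0.015 when an array was left out. That shift moved the median of all probes by 0.11 and the share of called probes that were higher from 34.0% to 45.8%. Some values changed sign: Atp6v0d2 to 0.059 with the shift and 0.18 with the mean over probes, Lamp2 to 0.062 with the slide row and 0.15 with the lowest p, Npc1 to 0.00019 with the slide row and 0.0067 without B41 KO replicate 3 (range -0.059 to 0.0067 when an array was left out), Gaa to 0.19 and 0.58, and Grn to -0.051 and -0.13, with the mean and the lowest p. The probe choice exchanges the probe itself, and the slide-row fit rests on B41 KO replicate 1 alone. For the rest the cause was not tested. With TCACGTGA in place of CACGTG, 12.2% of member promoters matched.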
